A study of Rattus norvegicus with 6 samples.

Results

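The translation initiation factor genes of rat cells that the study names PC12 were compared between control cells and cells overexpressing PCBP-1. They were taken as the protein-coding entries of the deposited table whose symbol begins with Eif, without Eif2ak2, an interferon-inducible kinase. Of 20609 entries, 17732 of them protein-coding, 56 had such a symbol. After 2 pseudogenes and Eif2ak2 were set aside, 53 entries with 52 symbols remained, since Eif3h has 2 entries. PC12 cells derive from a pheochromocytoma of the rat, which is a tumour of the adrenal medulla. The control group (3 libraries) received a control plasmid, and the PCBP1-OE group (3 libraries) a plasmid for PCBP-1, a poly(C)-binding protein, fused to EGFP. The study speaks both of constitutive overexpression and of transient transfection, and the time of harvest for RNA-seq is not given in the sources used here. The labels number the libraries without saying whether they came from separate cultures, so p-values measure only the spread between these samples, which may be technical.

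Initiation factors bring the small ribosomal subunit and the initiator tRNA to the start codon of an mRNA. eIF2 delivers the tRNA, eIF2B recharges eIF2 with GTP, and the eIF2 kinases slow that recharging under stress. eIF3 is the large scaffold on the small subunit, eIF4F (the cap-binding eIF4E, the scaffold eIF4G and the helicase eIF4A) recruits the mRNA, and eIF1, eIF1A, eIF5 and eIF5B govern start codon choice and subunit joining. 4E-BPs, the eIF4E-binding proteins controlled by mTORC1, keep eIF4E from eIF4G.

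The libraries held 19730209 to 22315623 counts on genes, and 12624 genes had enough counts for a test. The PCBP-1 gene was not analysed here, so its overexpression could not be checked in these libraries. Of 7 chromaffin markers, Dbh, Ddc, Chga, Chgb and Slc18a2 had at most 10 counts in every library, while Th had 141 to 185 counts and Slc18a1 17 to 28. The summed level of these markers was 8.24 to 9.83 CPM (counts scaled to a common library size) in the controls and 8.94 to 9.93 CPM in PCBP1-OE. Summed fibroblast markers were at 219 to 225 CPM against 202 to 216 CPM, nearly all from Pdgfra, while Dcn had at most 5 counts. Of glial genes, S100b was at 218, 243 and 238 CPM in the controls and 212, 219 and 212 CPM in PCBP1-OE (adjusted p = 0.122), and Gfap at 6.32, 6.95 and 6.15 CPM against 5.45, 6.05 and 4.08 CPM, lower without overlap (log2 fold change -0.32, adjusted p = 0.217). Leukocyte markers summed to 6.51 to 7.48 CPM against 5.88 to 6.36 CPM, and endothelial markers to 0.269 to 0.376 CPM against 0.234 to 0.555 CPM. None of these markers that were tested passed edgeR's test at an adjusted p of 0.05, and the part of the marker differences in the results was not tested. Control replicate 3 stood apart in its effect on the test, because 2860 genes were called without it, against 1193 with all 6 libraries. Without control replicate 2 there were 48 calls.

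Most initiation factor genes differed little between the groups. Levels below are normalised CPM, scaled with TMM factors, and a gene is called where edgeR's quasi-likelihood test gives a Benjamini-Hochberg adjusted p of 0.05 or less over all genes tested. Of the 53 entries 51 had enough counts, and 7 of them (13.7%) were called, beside 9.45% of all genes tested. Eif3a, Eif3j, Eif4a2, Eif1a and Eif5 were higher in PCBP1-OE, 5 of 51 beside 4.45% of all genes. Eif4e2 and Eif5a were lower, 2 of 51 beside 5% of all genes. No member was called with a change of 2-fold or more, as 0.19% of all genes were. These shares are given as a description, with no test that sets the members apart from other genes. The same 9.45% stands beside the calls of each complex and list below, most of which hold few genes. No test was run that sets a complex or list apart from other genes. With upper-quartile scaling, the calls over all genes were 655 higher and 427 lower in place of 562 higher and 631 lower.

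The members moved within a narrow range. The median log2 fold change of the 51 members was 0.03 (all genes 0.0029), and the median of the absolute values was 0.08, against 0.13 over all genes. For 33 members the absolute log2 fold change was under 0.1. In an exploratory look described under the processing, fold changes tended to rise with gene span. The part of this in the changes below was not tested. The members are abundant, and their median standard error on the log2 scale was 0.05 beside 0.08 for all genes. The 3 control and 3 PCBP1-OE values did not overlap for 19 members (37.3%), beside 30.6% of all genes, 10 of them higher and 9 lower in PCBP1-OE. Together the members took 1.353%, 1.368% and 1.387% of the counts in the controls and 1.429%, 1.405% and 1.413% in PCBP1-OE. This share did not overlap between the groups. After TMM scaling the sums did overlap, at 13986, 13929 and 13801 CPM in the controls and 13851, 13799 and 14229 CPM in PCBP1-OE.

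**Figure D1:**
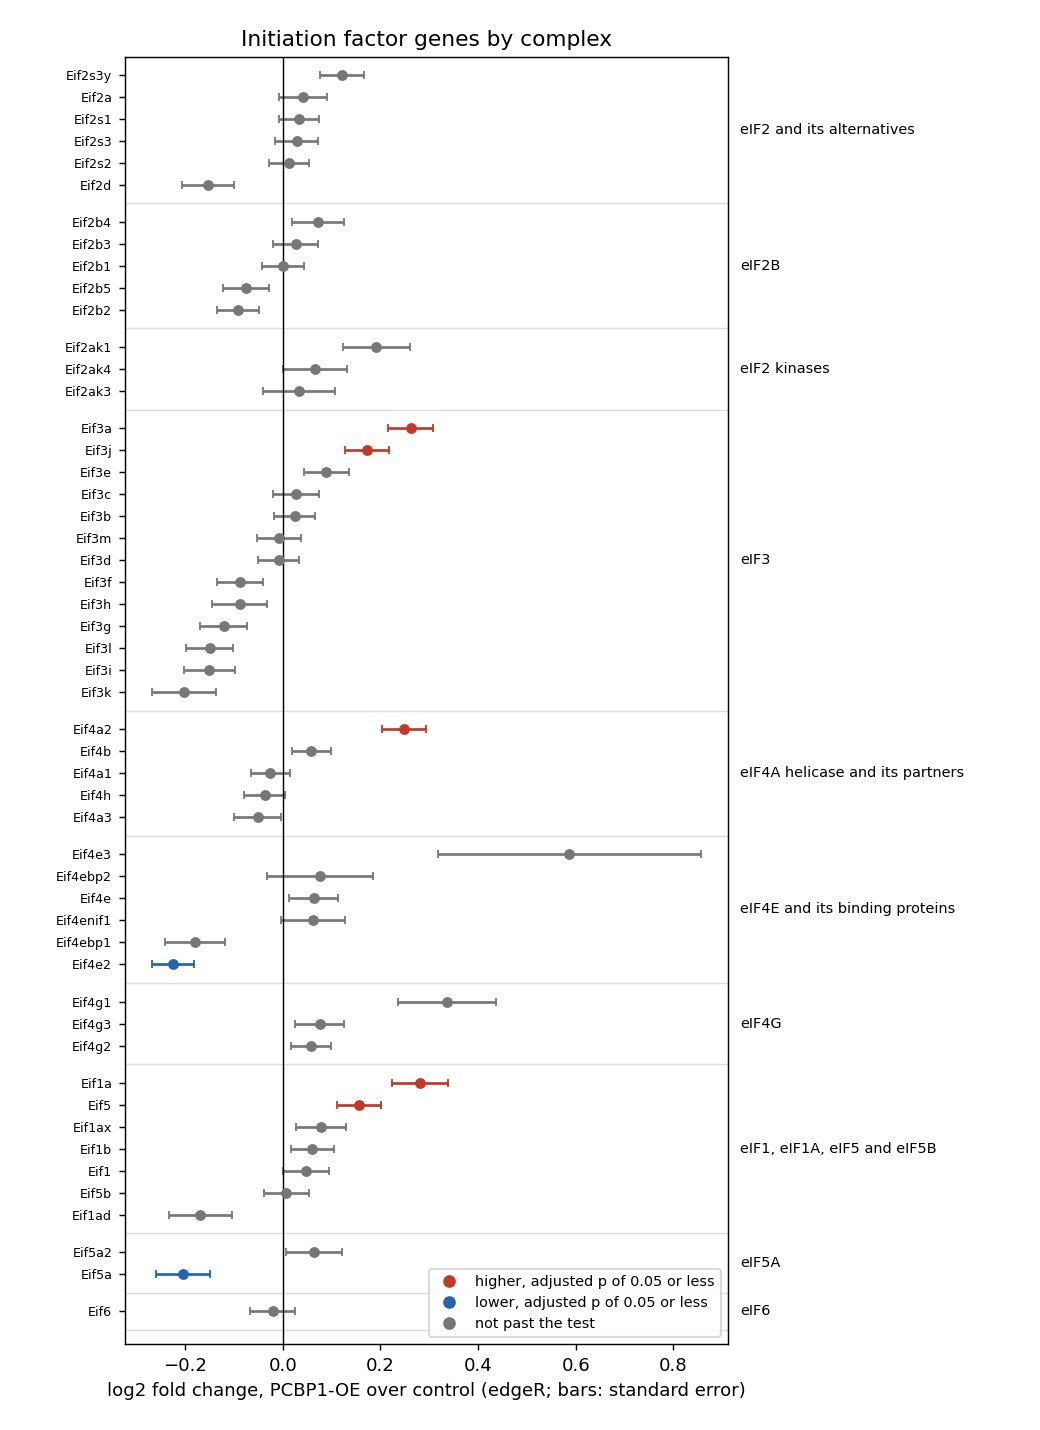
The log2 fold change of each tested member, PCBP1-OE over control, with its standard error (edgeR), grouped by factor complex. The 7 called members lie between -0.22 and 0.28, and the wide bar of Eif4e3, at 0.59, rests on 17 to 35 counts per library.

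Calls depended on which libraries were used. Leaving out control replicate 1, 2 or 3 left 2, 0 or 16 called members, beside 1.92%, 0.37% or 22.3% of all genes tested. Leaving out PCBP1-OE replicate 1, 2 or 3 left 1, 3 or 5 called members, beside 1.32%, 1.06% or 5.42%. Without control replicate 2, 13 members had an unadjusted edgeR p of 0.05 or less, beside 18 with all libraries. The share of all genes at that threshold was not counted, so these numbers do not set the members apart. All 7 called members kept their direction with each library left out and under every other alternative run.

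**Figure D2:**
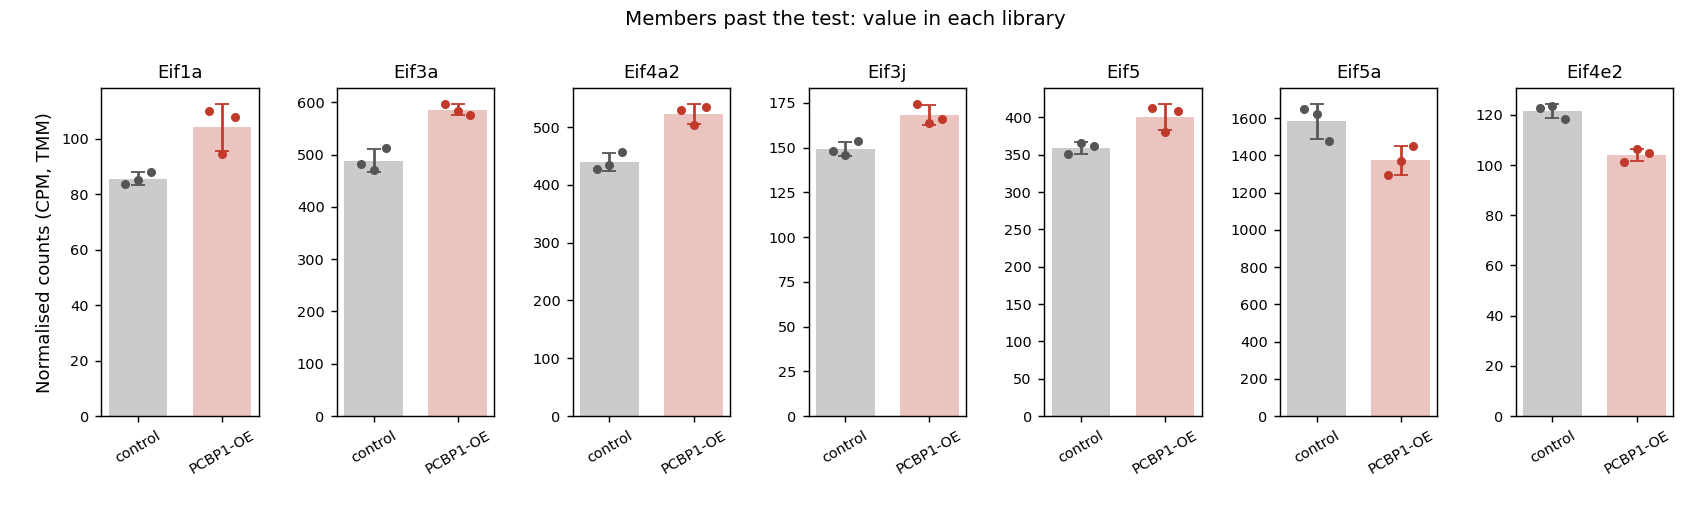
Normalised CPM of the 7 called members in each library (points), with the mean and SD of 3 libraries in each group and axes that start at 0. The groups do not overlap for any of the 7, and the distance between them is small beside the level of each gene.

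**Figure D3:**
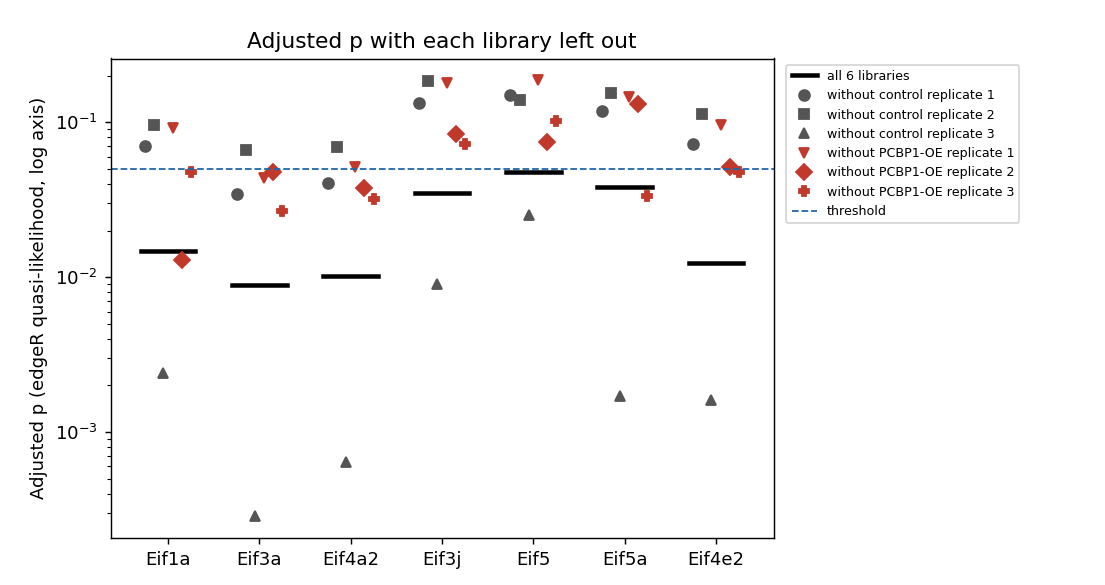
The adjusted p (edgeR, log axis) of each called member with all 6 libraries (black bars) and with each library left out (points), with the threshold as a dashed line. Eif3a stays under the threshold in 5 of 6 cases, while Eif3j and Eif5 do so in 1.

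To show the DNA in front of the genes that were called, the 250 bases before the RefSeq start are given for 2 genes that were higher in PCBP1-OE (Eif3a, Eif4a2) and the 2 that were lower (Eif4e2, Eif5a). The windows are from RefSeq on the rat build GRCr8, chr1:269919026-269919275, chr11:91275324-91275573, chr9:95333775-95334024 and chr10:55143222-55143471. All are on the minus strand apart from Eif4e2, and all are written 5′ to 3′ along the gene. Capitals mark the GC box GGGCGG on either strand, the E-box CACGTG and the TATA box TATAAA.
Eif3a: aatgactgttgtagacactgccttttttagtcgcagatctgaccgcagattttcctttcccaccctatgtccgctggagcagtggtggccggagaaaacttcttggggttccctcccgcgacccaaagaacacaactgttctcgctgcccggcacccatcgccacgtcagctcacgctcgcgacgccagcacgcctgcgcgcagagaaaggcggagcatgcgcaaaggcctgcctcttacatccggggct
Eif4a2: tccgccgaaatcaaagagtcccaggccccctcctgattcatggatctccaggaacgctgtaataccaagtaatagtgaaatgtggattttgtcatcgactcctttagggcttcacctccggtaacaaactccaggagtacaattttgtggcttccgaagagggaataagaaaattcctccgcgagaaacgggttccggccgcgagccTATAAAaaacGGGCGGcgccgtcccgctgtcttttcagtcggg
Eif4e2: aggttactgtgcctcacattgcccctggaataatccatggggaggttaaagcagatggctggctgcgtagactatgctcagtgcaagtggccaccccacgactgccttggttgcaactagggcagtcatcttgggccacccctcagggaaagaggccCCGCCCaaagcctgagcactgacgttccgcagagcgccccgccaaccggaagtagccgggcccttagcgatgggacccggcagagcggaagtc
Eif5a: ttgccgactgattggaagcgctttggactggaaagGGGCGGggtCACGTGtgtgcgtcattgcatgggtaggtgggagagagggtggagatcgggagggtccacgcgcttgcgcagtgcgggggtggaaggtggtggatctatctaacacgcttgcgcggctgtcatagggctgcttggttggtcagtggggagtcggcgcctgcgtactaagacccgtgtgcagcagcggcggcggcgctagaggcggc

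A RefSeq window was found for 47 of the 52 symbols, and there was none for Eif3e, Eif3h, Eif4b, Eif4e3 and Eif4ebp1. A GC box on either strand was present in 31 of the 47 windows (66.0%), beside 30.5% of all 33469 windows of the same length. All windows outnumber the 12624 genes tested and were not matched to the members in level or gene type. The shares given here and below therefore cannot set the members apart from other expressed genes, and that comparison was not run. Of the 7 called members, 6 had a GC box and Eif3a had none. The E-box, which reads the same on both strands, was in 8 windows (17.0%, all windows 5.59%), those of Eif3b, Eif3f, Eif4h, Eif4e, Eif4g1, Eif1b, Eif5a and Eif5a2. A CCAAT box on either strand was in 14 windows (29.8%, all windows 34.0%). A TATA box on either strand was in the windows of Eif2s1 and Eif4a2 alone (all windows 12.9%). In Eif4a2 the TATA box stands just upstream of the GC box, and in Eif5a the GC box stands just upstream of the E-box. An element of the kind that ATF4 binds (TGATGNAA, either strand) was in the windows of Eif2s2 and Eif3g (4.26%, all windows 3.40%). A start at C followed by 4 pyrimidines, as in mRNAs under mTORC1 control, was present in Eif2a alone of the 47 windows (all windows 2.63%). Only the 5 bases at the annotated start were read, so a start that lies a few bases away would be missed. The symbols without a window were not scored. These matches describe letters and not binding.

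eIF2 delivers the initiator tRNA, and none of the 6 genes of its subunits and of the alternative factors Eif2a and Eif2d was called. Eif2s2, the beta subunit and the gene of this group with the highest CPM, was at 380, 365 and 360 CPM in the controls and 370, 372 and 373 CPM in PCBP1-OE. The groups overlapped, and the log2 fold change was 0.01 (SE 0.04, adjusted p = 0.862). Eif2s1, the alpha subunit that the stress kinases phosphorylate, had a log2 fold change of 0.03. The smallest adjusted p of the group was that of Eif2d, which can bring initiator tRNA without eIF2 and acts in ribosome recycling. Eif2d was at 101, 110 and 103 CPM in the controls and 95.3, 88.2 and 98.7 CPM in PCBP1-OE. The PCBP1-OE libraries all lay below the controls, with a log2 fold change of -0.15 (SE 0.05, adjusted p = 0.0833). The X-linked Eif2s3 and the Y-linked Eif2s3y both encode the gamma subunit, and reads of such near-identical copies can be split between them in ways that the counting, not given in the sources used here, decides. Their log2 fold changes were 0.03 and 0.12 (adjusted p = 0.713 and 0.0934), and 0.07 with both summed (adjusted p = 0.292).

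eIF2B, the exchange factor that reloads eIF2 with GTP, had no call among its 5 subunit genes, and its median log2 fold change was 4.33e-05. Eif2b1, the alpha subunit with the highest mean CPM, was at 160, 163 and 163 CPM in the controls and 158, 167 and 162 CPM in PCBP1-OE, with overlapping groups (SE 0.04, adjusted p = 0.9995). Eif2b2, the beta subunit with the smallest adjusted p, was at 167, 168 and 165 CPM in the controls and 152, 157 and 159 CPM in PCBP1-OE. The groups did not overlap, with a log2 fold change of -0.09 (SE 0.04, adjusted p = 0.177). All other subunits lay between -0.08 (Eif2b5) and 0.07 (Eif2b4).

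Of the eIF2 kinases, Eif2ak1 (HRI, which senses heme shortage), Eif2ak3 (PERK, which senses unfolded protein in the endoplasmic reticulum) and Eif2ak4 (GCN2, which senses amino acid shortage) were tested, with no call. Eif2ak1 was at 33.2, 33.4 and 38.1 CPM in the controls and 41.2, 38.6 and 40.0 CPM in PCBP1-OE. Its control replicate 3 lay just under the lowest PCBP1-OE library, and the log2 fold change was 0.19 (SE 0.07, adjusted p = 0.0877). Eif2ak4, the kinase with the highest CPM, was at 55.6, 49.4 and 53.0 CPM against 59.3, 54.9 and 51.0 CPM, with overlapping groups and a log2 fold change of 0.07 (SE 0.07, adjusted p = 0.549). Eif2ak3 was at 0.03 (adjusted p = 0.803).

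The eIF3 genes did not share a direction. Of the 13 tested, 2 were called, both higher in PCBP1-OE (4.45% of all genes were), while 8 had a log2 fold change below 0. The median was -0.0081. Eif3a (chromosome 1, ENSRNOG00000010117) encodes the largest subunit, the scaffold on which the complex assembles. It was at 482, 471 and 513 CPM in the controls and 597, 584 and 577 CPM in PCBP1-OE. Every PCBP1-OE library lay above every control, with means of 489 ± 21.7 and 586 ± 10.3 CPM (SD, n = 3 each). The log2 fold change was 0.26 (SE 0.05, adjusted p = 0.00886), a rise of 19.9%. It was called in 5 of the 6 fits with a library left out, and lost without control replicate 2 (adjusted p = 0.0664).

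Eif3j (chromosome 3, ENSRNOG00000016459) encodes a loosely bound subunit that sits near the mRNA entry of the small ribosomal subunit. Its controls were at 148, 146 and 154 CPM and its PCBP1-OE libraries at 174, 164 and 166 CPM, with no overlap (149 ± 3.98 against 168 ± 5.56 CPM, SD, n = 3 each). On the log2 scale the difference was 0.17 (SE 0.05, adjusted p = 0.0348). It was called in 1 of the 6 fits with a library left out, that without control replicate 3, and the adjusted p reached 0.184 in the others.

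The subunits below 0 were led by Eif3k, a small subunit, at 174, 164 and 148 CPM in the controls and 136, 133 and 153 CPM in PCBP1-OE. The groups overlapped through control replicate 3 and PCBP1-OE replicate 3, and the log2 fold change was -0.20 (SE 0.07, adjusted p = 0.0671). Eif3l, the partner of Eif3k in the complex, had non-overlapping groups and a log2 fold change of -0.15 (adjusted p = 0.0688). Eif3i was at -0.15 (adjusted p = 0.0804) and Eif3g, which with Eif3i and Eif3b forms the module that contacts the scanning ribosome, at -0.12 (adjusted p = 0.122). The groups of Eif3g and Eif3i did not overlap either. Reads of Eif3i can be shared with the transcribed pseudogene Eif3i-ps1, and with both summed the log2 fold change was -0.12 (adjusted p = 0.108). Eif3b, Eif3c, Eif3d and Eif3m lay between -0.01 and 0.03, Eif3e was at 0.09, and Eif3f and Eif3h at -0.09 each. The table places Eif3e on chromosome 13 and Eif3h on chromosome 6, whereas RefSeq's GRCr8 has both genes elsewhere, so these entries may be other copies. The other Eif3h entry, on chromosome 6 as well, had 1 count in 1 library and was not tested.

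**Figure D4:**
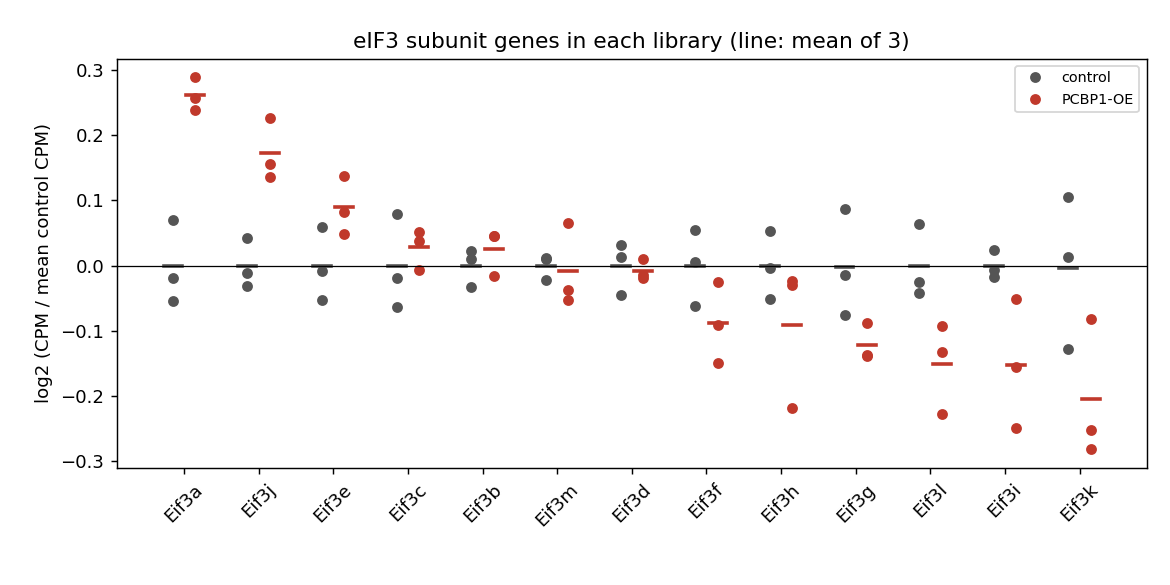
Each point is 1 library's CPM of an eIF3 subunit gene over the mean of the 3 controls, on a log2 axis, and each line is the mean of 3 libraries. Eif3a and Eif3j lie apart from the controls on the upper side, while Eif3k, with means of 162 and 141 CPM, lies on the lower side with overlapping groups.

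Among the factors of start codon choice and subunit joining, Eif1a and Eif5 rose and none was called lower. Eif1a (chromosome 18, ENSRNOG00000031421) carries the name of eIF1A, which opens the small subunit for scanning together with eIF1. It was at 83.8, 85.1 and 88.1 CPM in the controls and 110, 94.4 and 108 CPM in PCBP1-OE, without overlap (85.7 ± 2.17 against 104 ± 8.45 CPM, SD, n = 3 each). The rise was 0.28 on the log2 scale (SE 0.06, adjusted p = 0.0148), and it was called in 3 of the 6 fits with a library left out, with adjusted p from 0.0024 to 0.0961, and not without control replicate 1, control replicate 2 or PCBP1-OE replicate 1. The X-linked Eif1ax encodes the same factor. Eif1ax was at 213, 219 and 203 CPM in the controls and 233, 209 and 229 CPM in PCBP1-OE, overlapping, with a log2 fold change of 0.08 (adjusted p = 0.334). With the counts of both genes summed the log2 fold change was 0.14 (adjusted p = 0.0895), and the call was lost.

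Eif5 (chromosome 6, ENSRNOG00000010218) encodes the protein that triggers GTP hydrolysis by eIF2 at the start codon. Its controls were at 351, 366 and 361 CPM and its PCBP1-OE libraries at 413, 381 and 409 CPM, without overlap (359 ± 7.88 against 401 ± 17.5 CPM, SD, n = 3 each). This was a log2 fold change of 0.16 (SE 0.05, adjusted p = 0.0475), the largest adjusted p of the 7 calls. It was called in 1 of the 6 fits with a library left out, that without control replicate 3, and the adjusted p reached 0.187. Eif1, the fidelity factor of start codon choice and the gene of this group with the highest CPM, was at 1215, 1228 and 1183 CPM in the controls and 1201, 1226 and 1324 CPM in PCBP1-OE. The groups overlapped, with a log2 fold change of 0.05 (SE 0.05, adjusted p = 0.536). Eif5b, the GTPase of subunit joining, was at 0.01 (adjusted p = 0.938). Eif1ad, a gene for a protein with an eIF1A domain, was lower in all 3 PCBP1-OE libraries, with a log2 fold change of -0.17 (adjusted p = 0.105, and 0.047 without control replicate 3).

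Of the helicase genes of eIF4F, Eif4a2 was called and Eif4a1 was not, and their ratio is tested further below. Eif4a2 (chromosome 11, ENSRNOG00000001815), a helicase paralog closely related to Eif4a1, was at 428, 434 and 457 CPM in the controls and 530, 503 and 535 CPM in PCBP1-OE, with no overlap (440 ± 15.5 against 523 ± 17.0 CPM, SD, n = 3 each). The log2 fold change was 0.25 (SE 0.05, adjusted p = 0.0102), a rise of 18.8%. It was called in 4 of the 6 fits with a library left out, and not without control replicate 2 (adjusted p = 0.0692) or PCBP1-OE replicate 1 (adjusted p = 0.0513). Eif4a1, the main eIF4A gene of most cells, was at 1000.0, 1006 and 983 CPM against 981, 972 and 984 CPM, with overlapping groups and a log2 fold change of -0.03 (SE 0.04, adjusted p = 0.725). Eif4a3, whose protein works in the exon junction complex, was at -0.05, and the helicase cofactors Eif4b and Eif4h at 0.06 and -0.04, none called.

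Within each library, Eif4a1 had 2.34, 2.32 and 2.15 counts per count of Eif4a2 in the controls and 1.85, 1.93 and 1.84 in PCBP1-OE. The ratio was lower in all 3 PCBP1-OE libraries, by 0.27 on the log2 scale (difference -0.27, exact permutation test, two-sided, p = 0.1, which is the lowest p possible with 3 libraries a group). Adjusted over the 3 ratios computed, p was 0.15 in that exact test. The ratio of Eif4ebp1 to Eif4ebp2 was 8.28, 10.3 and 7.50 in the controls and 7.35, 7.19 and 7.02 in PCBP1-OE (log2 difference -0.26, exact permutation p = 0.1, adjusted p = 0.15), and the log2 difference was -0.13 without control replicate 2. The ratio of Eif4g1 to Eif4g3 was 1.06, 1.09 and 1.40 against 1.53, 1.46 and 1.27, and control replicate 3 crossed into the PCBP1-OE range (log2 difference 0.27, exact permutation p = 0.2, adjusted p = 0.2). Counts are not corrected for gene length, so a ratio can be compared between libraries and not read as a ratio of transcript numbers.

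**Figure D5:**
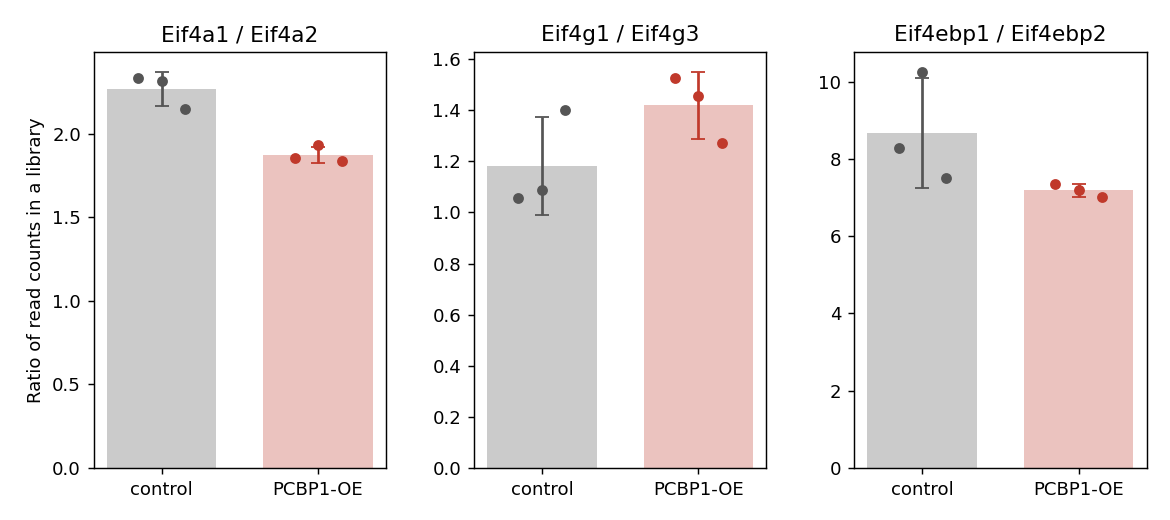
Points show the ratio of the counts of 2 related genes in each library, bars the group mean and error bars the SD (n = 3 each). For Eif4a1 to Eif4a2 the means were 2.27 in the controls and 1.87 in PCBP1-OE with no overlap, while for Eif4g1 to Eif4g3 the groups overlapped.

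At the mRNA cap, Eif4e2 fell. Eif4e2 (chromosome 9, ENSRNOG00000019634) encodes 4EHP, a cap-binding relative of eIF4E that does not join eIF4G and is known as a translational repressor. It was at 123, 124 and 118 CPM in the controls and 101, 106 and 105 CPM in PCBP1-OE, and the groups lay well apart (122 ± 2.80 against 104 ± 2.47 CPM, SD, n = 3 each). Its log2 fold change was -0.22 (SE 0.04, adjusted p = 0.0124), a change of -14.4%. It was called in 2 of the 6 fits with a library left out, those without control replicate 3 and without PCBP1-OE replicate 3, and the adjusted p reached 0.114.

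Eif4e itself, the cap-binding subunit of eIF4F, was at 169, 172 and 168 CPM in the controls and 185, 165 and 183 CPM in PCBP1-OE. Its groups overlapped through PCBP1-OE replicate 2, with a log2 fold change of 0.06 (SE 0.05, adjusted p = 0.437). Of the 4E-BP genes, Eif4ebp1 was at 144, 139 and 122 CPM in the controls and 117, 114 and 127 CPM in PCBP1-OE. Control replicate 3 and PCBP1-OE replicate 3 crossed, and the log2 fold change was -0.18 (SE 0.06, adjusted p = 0.0786). Eif4ebp2 was at 17.4, 13.5 and 16.3 CPM against 15.9, 15.9 and 18.0 CPM (log2 fold change 0.08, adjusted p = 0.687). Eif4enif1, which carries eIF4E into the nucleus and to processing bodies, was at 0.06. Eif4e3, another cap-binding relative, had 17 to 35 counts per library and a log2 fold change of 0.59 (SE 0.27, adjusted p = 0.172). Eif4e1b, an oocyte form of eIF4E, had at most 2 counts in any library and was not tested.

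No eIF4G gene was called in the quasi-likelihood test. Eif4g1, the scaffold that joins eIF4E, eIF4A and eIF3, was at 101, 92.0 and 129 CPM in the controls and 142, 143 and 121 CPM in PCBP1-OE. Its control replicate 3 lay above PCBP1-OE replicate 3, and the means were 107 ± 19.5 and 136 ± 12.3 CPM (SD, n = 3 each). The log2 fold change of 0.34, 1.26-fold, was the largest of the members with over 100 counts in every library, with the large SE of 0.10 (adjusted p = 0.0532). Without control replicate 3 the adjusted p was 0.00019. It also passed with limma-voom (adjusted p = 0.0478), edgeR's likelihood-ratio test (0.0177), upper-quartile scaling (0.0484) and no filter on low counts (3.5e-07). It did not pass with DESeq2 (0.168), RLE scaling (0.0528), a filter of 1 CPM in 3 libraries (0.0510) or a block for the replicate number (0.169). With any other library left out it was not called (edgeR adjusted p from 0.0520 to 0.238), so it passed in 5 of 14 alternatives. Eif4g2 (DAP5), a relative that lacks the eIF4E-binding part and supports cap-independent initiation, was at 678, 696 and 686 CPM against 734, 707 and 704 CPM, without overlap (log2 fold change 0.06, adjusted p = 0.382). Eif4g3 was at 95.0, 84.7 and 92.2 CPM against 93.1, 98.1 and 95.3 CPM (log2 fold change 0.08, adjusted p = 0.357).

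Eif5a fell. Eif5a (chromosome 10, ENSRNOG00000016478), the factor with the amino acid hypusine that helps ribosomes through stalling stretches such as prolines, was at 1651, 1620 and 1476 CPM in the controls and 1295, 1371 and 1452 CPM in PCBP1-OE. The groups did not overlap, though control replicate 3 and PCBP1-OE replicate 3 came close (1582 ± 93.5 against 1373 ± 78.5 CPM, SD, n = 3 each). The log2 fold change was -0.20 (SE 0.05, adjusted p = 0.0383), a change of -13.2%. It was called in 2 of the 6 fits with a library left out, those without control replicate 3 and without PCBP1-OE replicate 3, and the adjusted p reached 0.155. Its paralog Eif5a2 was at 0.06 (adjusted p = 0.500). Eif6, which keeps the large ribosomal subunit from joining too early, was at 323, 318 and 304 CPM against 304, 302 and 327 CPM, with overlapping groups and a log2 fold change of -0.02 (SE 0.05, adjusted p = 0.812).

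Of 43 other translation genes in 6 lists, all tested, 3 were called higher and 2 lower, beside 4.45% and 5% of all genes. In the list of the eIF2 phosphatase and ATF4, 2 of 4 rose (4.45% of all genes), and the median log2 fold change was 0.20. This small list was chosen with earlier results known, so its count is a description. Ppp1r15a (GADD34), the stress-induced subunit that directs a phosphatase to eIF2, was at 193, 179 and 193 CPM in the controls and 222, 232 and 232 CPM in PCBP1-OE. The PCBP1-OE libraries all lay higher, with a log2 fold change of 0.28 (SE 0.05, adjusted p = 0.00835). Ddit3 (CHOP), a transcription factor downstream of ATF4, was at 403, 390 and 404 CPM against 452, 481 and 492 CPM, again without overlap (log2 fold change 0.25, SE 0.05, adjusted p = 0.00978). Atf4, whose mRNA is translated when eIF2 is phosphorylated, was at 0.14 (adjusted p = 0.0645).

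Of the 11 genes of start site choice, recycling and poly(A) binding, Ddx3x rose. Ddx3x, a helicase for structured leaders, was at 478, 489 and 467 CPM in the controls and 576, 517 and 544 CPM in PCBP1-OE, without overlap (log2 fold change 0.19, SE 0.05, adjusted p = 0.0306). Of 9 elongation genes 2 fell (5% of all genes) and none was called higher, and 7 had a log2 fold change below 0. Eef1d and Eef1b2 encode exchange factors that reload the elongation factor eEF1A. Eef1d was at 379, 367 and 339 CPM against 306, 300.4 and 329 CPM, with control replicate 3 and PCBP1-OE replicate 3 nearest to each other (log2 fold change -0.21, SE 0.05, adjusted p = 0.0275). Eef1b2 was at 497, 491 and 439 CPM against 413, 407 and 430 CPM (log2 fold change -0.19, SE 0.05, adjusted p = 0.0390). Neither group pair overlapped. Eef1g, of the same complex, was at -0.14 (adjusted p = 0.0842). With each library left out, Ppp1r15a was called in 5 of 6 fits, Ddit3 in 4, Eef1d in 2, and Ddx3x and Eef1b2 in 1 each. None of 14 genes of mTORC1, S6 kinase and MNK, 3 termination genes and 2 mitochondrial initiation genes was called.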

How the data were processed

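RNA-seq of 6 libraries of cells named PC12, 3 control and 3 PCBP1-OE, was used, and the labels gave each library's group and replicate number. The values deposited by the authors are raw read counts for each gene. Before counting, as the methods describe, the authors cleaned the reads with FASTX-Toolkit 0.0.13 and aligned them to the rat genome Rnor_6.0 by TopHat2, allowing at most 4 mismatches, and kept reads with a unique position. The submitters' processing notes name a human build, while the deposited IDs are rat Ensembl genes. The labels and the methods name different library kits. Which tool counted the reads, with which strand setting and annotation, is not given in the sources used here.

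Counts were tested with edgeR 4.0.16 (R 4.3.3), using TMM factors, filterByExpr (minimum count 10, minimum total count 15, which left out 7985 genes), the quasi-likelihood test and Benjamini-Hochberg adjustment over all 12624 genes tested, with a threshold of 0.05. The pipeline was tested on simulated data with changes of 2-fold or more, so that test does not cover changes as small as those called here. In it 7.1% of the calls were false. Ratios of paralogs were compared with exact permutation tests (Python 3.11.15, scipy 1.17.1). The members, the 6 lists of other translation genes and the marker lists were chosen with earlier results of these data known. Some markers are not reported here. Values are given for each called member, the member of each complex with the highest mean CPM, the smallest adjusted p where a complex has no call, the paralogs of the ratios and the called genes of the other lists. Further members are named with their fold changes only, and Eif3k and Eif1ax were given in full after their values were seen. The alternatives tried were RLE or upper-quartile scaling, no filter on low counts, a filter of 1 CPM in 3 libraries, DESeq2 1.42.0, limma-voom (limma 3.58.1), edgeR's likelihood-ratio test, a block for the replicate number, and leaving out each library. Summing near-identical pairs was added after the data were seen. Promoter windows came from a RefSeq table of GRCr8. Fold changes were not corrected for gene length. An exploratory look outside the reported results used gene spans of a RefSeq table of another build. In it fold changes tended to rise with span, over all genes and among the members. The part of this in the small fold changes given here was not tested.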

Additional observations from a re-analysis of the deposited data

How the results depend on the processing

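The direction of the 7 called members held under all 14 alternatives run for each, and Eif3a was called in 12 of them, Eif4a2 in 11, Eif1a in 10, Eif4e2 and Eif5a in 9, and Eif3j and Eif5 in 8. Members called lower numbered 5 with no low-count filter (1011 of 20609 genes) and 4 with DESeq2 (752 of 12624), against 2 as reported (631 of 12624). Called members of either direction numbered 9 with DESeq2 (11.2% of all genes), 8 with limma-voom (9.48%) and 9 with the likelihood-ratio test (12.9%). Leaving out 1 library gave 0 to 8 members higher and 0 to 8 lower, and among other translation genes 0 to 5 higher and 0 to 5 lower. The calls over all genes moved with them. They were fewest without control replicate 2, with 36 higher and 12 lower of 12815 genes. They were most without control replicate 3, with 1395 higher and 1465 lower of 12815. Upper-quartile scaling moved the median of the members to 0.048 (all genes 0.023) and left 1 other translation gene lower. Same-numbered libraries correlated at -0.0776, -0.0478 and -0.0362 in their deviations from the group means. No pairing by number was seen, but such correlations over all genes cannot exclude that same-numbered libraries shared a culture or batch. With the replicate block, 0 members were higher and 0 lower, and 0 other translation genes higher and 0 lower. Of all 12624 genes, 16 were called by edgeR. At the looser threshold of an unadjusted edgeR p of 0.05 or less there were 16 members. The share of all genes at that looser threshold was not counted, so the 2 numbers cannot be compared. The block left the ratio tests at an exact sign-flip p of 0.25 for Eif4a1 to Eif4a2 and Eif4ebp1 to Eif4ebp2, and 0.5 for Eif4g1 to Eif4g3. Among the 24 members followed through all alternatives, log2 fold changes near 0 changed sign in 4, and further members near 0, such as Eif3d, Eif3m and Eif5b, changed sign with 1 library left out. Eif2b1 gave -0.000473 with limma-voom, -3.5e-05 with the likelihood-ratio test, -2.1e-05 with the replicate block, and -0.0196 to 0.0194 with 1 library left out. With 1 library left out, Eif2s2 ran from -0.00326 to 0.0429, Eif4ebp2 from -0.0163 to 0.158 and Eif6 from -0.0510 to 0.00356. Genes with few counts, such as Eif4e3, had too wide an error to show a difference of this size.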

Other observations

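The 3 Eif entries outside the set had these values. Eif2ak2 (PKR), the interferon-inducible eIF2 kinase, was at 79.2, 81.1 and 79.3 CPM in the controls and 101, 110 and 95.5 CPM in PCBP1-OE, with no overlap. Its log2 fold change was 0.36 (SE 0.05, edgeR adjusted p = 0.00485), and it was called in all 6 fits with a library left out. Over all alternatives it was called in 13 of 14, and the adjusted p reached 0.0711. None of Eif2ak1, Eif2ak3 and Eif2ak4 was called, and the difference between the kinases was not tested. The pseudogene Eif3i-ps1 had 1647, 1651 and 1831 counts in the controls and 1693, 1659 and 1496 in PCBP1-OE, overlapping, with a log2 fold change of -0.06 (adjusted p = 0.486). Eif6-ps1 had 1 count in 1 control library.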
